A study of Urocitellus parryii with 24 samples.

Results

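The genes of the respiratory chain and of mitochondrial transport were examined in the liver of the Arctic ground squirrel (AGS), a hibernating rodent. The members are the genes of the study's published list whose symbol begins with NDUF, COX, UQCR, SDH, ATP5, SLC25, TIMM or TOMM. There were 31 such genes among the 1329 listed genes and the 9600 probes of the membrane. Each was paired with exactly 1 probe, by its listed state means. Where a gene had more than 1 probe, the paper had kept the probe with the lowest p-value in its analysis of variance. Any other probes of a member could not be identified here and were not examined. The list itself holds genes that differed between the 3 states by the study's analysis of variance on these same arrays. Counts of members that differ between states therefore describe a selected set and are not independent evidence. The stages within T and within A took no part in the choice. The filter sets described below were spread unevenly over the states, so differences between them are not independent of it either.

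Expression was measured in the livers of 24 AGS on nylon membranes spotted with cDNA, each animal on its own membrane. Torpor (T) was represented by 9 animals, 4 of them early in a torpor bout (early torpor) and 5 near its end (late torpor). A further 8 animals were in arousal episodes (A), 4 shortly after spontaneous rewarming (early arousal) and 4 some hours later (late arousal). The remaining 7 were summer active animals after the end of reproduction (P), at normal body temperature and not hibernating. All T and A animals had been without food throughout hibernation and carried temperature transmitters, by which their stage was set. Torpid animals were killed without anesthesia, and A and P animals under isoflurane, so anesthesia and state cannot be told apart between T and the others, nor season and food deprivation between P and the others. All animals had been trapped in the wild and housed in captivity. In bulk liver, fewer cells of a type and less RNA per cell cannot be told apart either.

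The respiratory chain of the inner mitochondrial membrane passes electrons from NADH through complex I, or from succinate through complex II, to complex III and complex IV, where oxygen is reduced. Complexes I, III and IV pump protons, and ATP synthase uses the return of these protons to make ATP. Carriers of the SLC25 family move phosphate, adenine nucleotides and metabolites across the inner membrane, and the TOMM and TIMM proteins bring in proteins made in the cytosol. During torpor the oxygen use of a hibernator falls far below its resting rate, and during arousal it rises steeply.

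The 31 members comprised 10 subunits of complex I, the related pair NDUFA4 and NDUFA4L2, 2 subunits of complex II, 1 of complex III, and 2 genes of complex IV. The last 2 are COX8A, a subunit, and COX11, a copper assembly factor. There were 5 subunits of ATP synthase, 5 carriers, and 3 genes of protein import, of which TOMM34 encodes a cytosolic cochaperone. The remaining gene, COX4NB, shares only the first letters of its symbol with complex IV and encodes a subunit of a membrane protein complex of the endoplasmic reticulum. The cDNA clones of 11 members came from the heart library, 8 from the brain library, 5 from a liver library, and 7 from a mixed library. Over the 1329 listed genes these libraries gave 405, 460, 283, and 163 clones. A spotted cDNA can also bind transcripts of close relatives, such as those of SLC25A4 and SLC25A6 or of ATP5G1 and ATP5G2, which was not tested.

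The arrays had median signals from 54.1 to 132 intensity units, and their backgrounds had medians from 13.3 to 19.9. None of the 31 members was marked as empty or missing on any array, and 26 were over 2 times their background on all 24 arrays. Levels are given as log2 of the background-subtracted signal over the array median, so that 0 is the level of the median probe. Such levels are compared between arrays for the same probe and not between genes. The probes of the liver markers ALB, TTR, APOB, FGB, APOA2, and SERPINA1 had mean signals at or above the 96.5th percentile of all probes. Correlations between arrays over all probes lay between 0.891 and 0.965, and no pair of arrays was identical.

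The membranes came from 2 sets of filters, named A1 and A2 in the scanner files. All 9 T arrays were on A1 filters, as were 7 of the 8 A arrays. Only 2 of the 7 P arrays were on A1 filters, and the other 5 were on A2. A difference between T or A and P thus shares most of its arrays with a difference between the filter sets, and the RNA was amplified, labeled and hybridized in 1 batch by the labels. The animal identifiers were spread in a similar way, since the most common prefix belonged to 7 of 9 T animals, 7 of 8 A animals, and 1 of 7 P animals. With the prefix as a block, T vs. P had 6 members called and A vs. P 3. Over all probes 524 and 243 were called in these fits, against 946 and 813 without the block. Since P and A hold both sets, the filter set was first estimated with the state in the fit. A further fit of each state comparison, called the blocked fit, took the filter set as a block.

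The filter sets differed for 12 of the 31 members at an adjusted p under 0.05, with 7 higher and 5 lower on A2 filters. Over all probes tested, 20.1% passed the same test, 9.8% as higher and 10.3% as lower, and of the 1298 other listed genes 403 did. Those higher on A2 filters included the complex I genes NDUFS5 (by 1.91 ± 0.25, SE, on the log2 scale), NDUFV3 (1.04 ± 0.17), and NDUFB6 (0.70 ± 0.24). They also included TOMM34 (1.26 ± 0.24), COX4NB (0.86 ± 0.26), and SDHA (0.51 ± 0.17). Those lower on A2 filters were NDUFA4L2 (-1.11 ± 0.21), SLC25A3 (-1.03 ± 0.23), NDUFV1 (-0.86 ± 0.23), SLC25A11 (-0.80 ± 0.20), and TOMM20 (-0.67 ± 0.23). None of the 5 ATP synthase genes passed this test, and UQCRC2 had a difference of -0.0090 ± 0.30.

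NDUFS5, an accessory subunit of complex I, had levels of -1.57 and -1.47 on the P arrays with A1 filters and of 0.33, 0.14, 0.40, 0.39, and -0.11 on those with A2 filters. The T arrays, all on A1 filters, had a lowest level of -1.99, a median of -1.36, and a highest of -1.05. The A arrays on A1 filters ranged from -2.03 to -0.53, with a median of -1.76, and the A array on an A2 filter stood at 0.62. The levels on A2 filters thus lay above those on A1 filters in both states, and the A1 arrays of the 3 states overlapped.

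NDUFV3, a small subunit of the NADH-binding part of complex I, was at -0.65 and -0.996 on the P arrays with A1 filters and at 0.53, 0.44, 0.31, 0.38, and 0.01 on those with A2 filters. Its T arrays ranged from -1.01 to -0.32, its A arrays on A1 filters from -1.22 to -0.60, and the A array on an A2 filter was at -0.04. Every array on an A2 filter exceeded every array on an A1 filter.

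**Figure D1:**
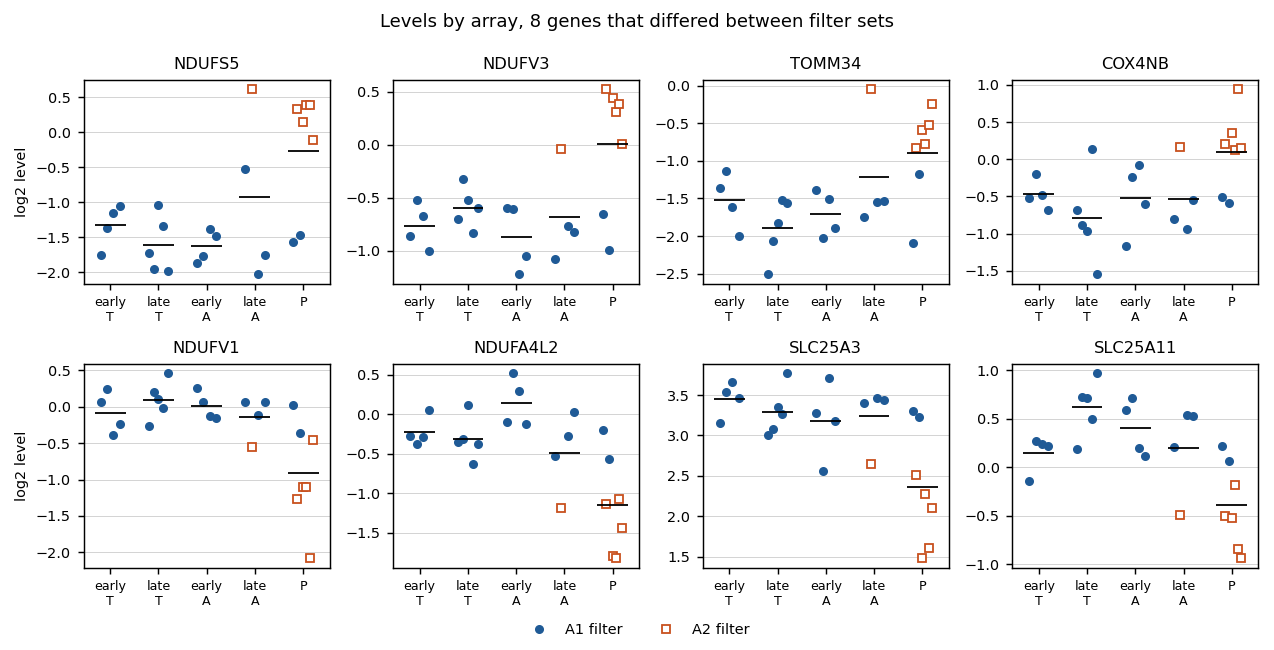
Log2 level (signal over array median) of 8 genes on each of the 24 arrays, by status group, with T for torpor, A for arousal, and P for summer active. Filled circles are arrays on A1 filters, open squares are arrays on A2 filters, and bars are group means. In NDUFS5 and NDUFV3 the square of the late A group stands with the squares of P, from -0.11 upwards in NDUFS5, while the 2 circles of P stand with T and A.

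TOMM34 was at -2.09 and -1.17 on the P arrays with A1 filters and at -0.83, -0.59, -0.78, -0.53, and -0.24 on those with A2 filters. The A array on an A2 filter was at -0.05, above the range of the A arrays on A1 filters, -2.03 to -1.39. The T arrays ranged from -2.51 to -1.14 with a median of -1.62, and overlapped the P arrays on A1 filters.

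Opposite in direction, NDUFA4L2, a relative of NDUFA4 known as a hypoxia-induced gene, was at -0.20 and -0.57 on P arrays with A1 filters and at -1.14, -1.80, -1.83, -1.08, and -1.44 with A2 filters. Its T arrays ranged from -0.63 to 0.11 with a median of -0.32. Its A arrays on A1 filters ranged from -0.53 to 0.52, and the A array on an A2 filter was at -1.19. NDUFV1, the NADH-binding subunit of complex I, was at 0.03 and -0.36 in P on A1 filters against -1.27, -1.11, -1.10, -2.09, and -0.46 on A2 filters, and at -0.55 on the A array with an A2 filter. In both genes all A2 arrays lay below the A1 arrays of T, A, and P.

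Among the carriers, SLC25A3, which imports phosphate for ATP synthesis, was at 3.30 and 3.23 in P on A1 filters and at 2.51, 1.48, 2.28, 1.61, and 2.11 on A2 filters. The T arrays ranged from 3.01 to 3.77 with a median of 3.35. The A array on an A2 filter, at 2.65, was within the range of the A1 filters in A, which reached down to 2.57. SLC25A11, the oxoglutarate/malate carrier, had T arrays from -0.15 to 0.97 with a median of 0.27. It was at 0.22 and 0.06 in P on A1 filters and at -0.51, -0.53, -0.19, -0.85, and -0.94 on A2 filters, with -0.49 on the A array with an A2 filter and 0.11 to 0.72 on the other A arrays. COX4NB was at -0.50 and -0.59 in P on A1 filters, against 0.20, 0.35, 0.12, 0.95, and 0.15 on A2 filters. Its T arrays ranged from -1.55 to 0.14 and its A arrays on A1 filters from -1.16 to -0.077, so the filter sets of this gene overlapped across states.

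When the A array on an A2 filter was left out of the estimate, the filter sets differed for 8 members. Among them were NDUFS5, NDUFV3, NDUFV1, NDUFA5, NDUFA4L2, SLC25A3, and TOMM34. This A array then lay beyond the range of the A1 arrays in A, in the direction of the filter difference in P, for 6 of the 8 genes. Over all 940 probes called in that fit, it did so for 699.

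T was then compared with P. Of the 31 members, 14 passed the test, 8 higher and 6 lower in T, against 9.86% of all probes, with 5.5% higher and 4.35% lower. Of the 1298 other listed genes, selected in the same way, 614 passed. The median difference of the members was 0.05 on the log2 scale, and -0.016 over all probes. Higher in T were SLC25A4 (1.43), SLC25A3 (1.01), NDUFV1 (0.93), NDUFA5 (0.91), NDUFA4L2 (0.88), SLC25A11 (0.80), TOMM20 (0.67), and NDUFB9 (0.66). Among those lower in T were NDUFS5 (-1.22), UQCRC2 (-1.16), TOMM34 (-0.84), COX4NB (-0.74), and NDUFV3 (-0.67). Complex I was divided, with 3 subunits higher and 3 lower, and none of the genes of complex II, complex IV, or ATP synthase passed.

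In the blocked fit 1 of the 31 members passed between T and P, against 0.969% of all probes. That gene was SLC25A4. The differences of NDUFS5, NDUFV3, and TOMM34 changed sign, to 0.15, 0.067, and 0.056, with adjusted p-values from 0.913 to 0.975. SLC25A3 had a difference of 0.27 ± 0.24 (adjusted p = 0.781), NDUFV1 of 0.32 ± 0.24 (adjusted p = 0.730), and NDUFA4L2 of 0.088 ± 0.22 (adjusted p = 0.945). On A1 filters only, where P has 2 arrays, 0 members passed by limma against 0.896% of probes, and 3 members had an unadjusted p under 0.05 against 8.62%. Those 3 were SLC25A4, UQCRC2, and SDHA. The study's own kind of test, an analysis of variance followed by Tukey's HSD and here called the methods' test, has no block and called 16 members against 13.9% of probes.

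**Figure D2:**
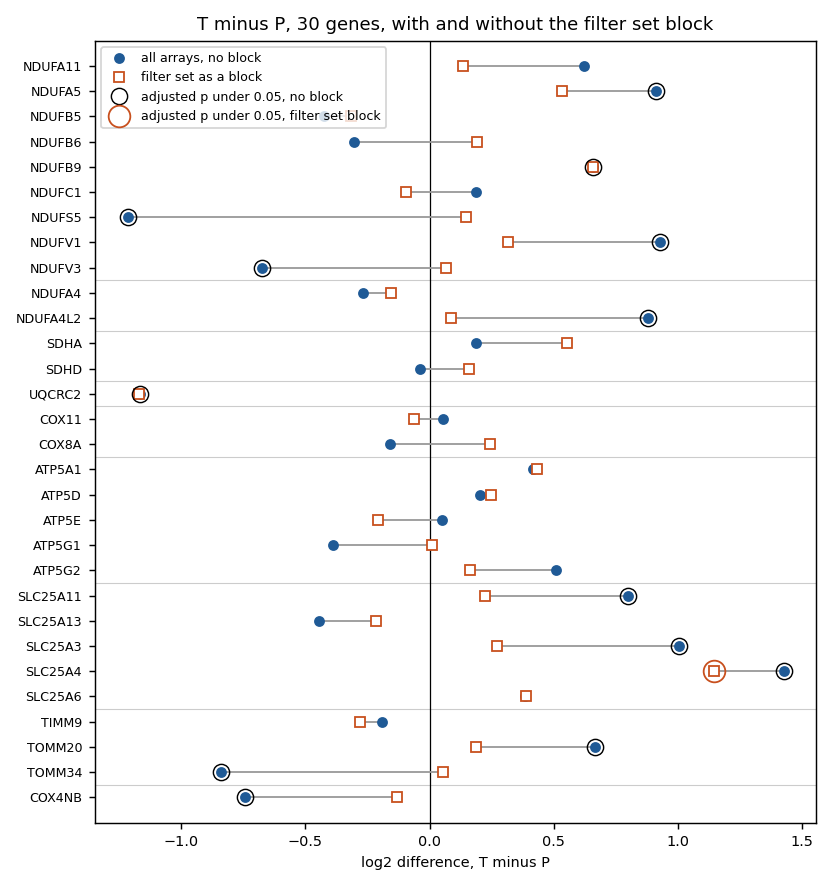
Difference between T and P on the log2 scale for 30 members, ordered by complex with grey lines between the groups. Filled circles are the fit of all arrays, open squares the blocked fit, and rings mark calls. The squares of NDUFS5, NDUFV3, and TOMM34 lie right of 0 while their circles lie left of it, and only SLC25A4 is ringed in both fits.

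SLC25A4 encodes the adenine nucleotide translocator of heart and skeletal muscle, which exchanges ADP for ATP across the inner membrane. Its levels in T had a lowest value of 2.43, a median of 3.16, and a highest of 3.85. In P they ran from 0.79 through a median of 1.82 to 2.38. All T arrays were above all P arrays, and the P arrays closest to them were the 2 on A1 filters, at 2.38 and 2.05. The difference was 1.43 ± 0.21 (adjusted p = 8.81e-05), a 2.69-fold higher level. Groups without overlap between T and P were found for 0.774% of probes, and among the members for this gene alone. In the blocked fit the difference was 1.15 ± 0.27 (adjusted p = 0.0361), and on A1 filters only it was 0.91 (adjusted p = 0.214). Over all 36 alternatives it ranged from 0.91 to 1.54, with adjusted p-values from 3.17e-05 to 0.281, and it was called in 33. Of these alternatives 24 each left out 1 array and kept the uneven filter sets. The call was lost on A1 filters only, with or without quantile normalization. It was also lost in the limma fit of quantile normalized levels with the block (adjusted p = 0.0564).

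Since SLC25A4 is a muscle isoform, 8 markers of heart and skeletal muscle were examined beside it. Of these, 5 passed between T and P, 3 higher and 2 lower, and 0 of 8 passed in the blocked fit, against 9.86% and 0.969% of all probes. The log2 of their summed level ranged from 2.27 to 2.46 in T and from 2.07 to 2.38 in P. The mean signals of the 8 lay between percentiles 6.36 (ACTA1, skeletal actin) and 59.8 (MYL4) of all probes. ACTA1 had mean levels of -1.79 in T and -3.14 in P. DES, which encodes desmin, was at percentile 6.83 and went the other way, with -2.68 in T and -1.49 in P. The part of these markers in the difference of SLC25A4 was not tested.

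UQCRC2, a core subunit of complex III, was the only member of that complex. Its levels in P had a lowest value of 1.13, a median of 2.30, and a highest of 2.96. In T they ran from 0.63 through 0.76 to 2.00, and in A from 0.72 through 0.96 to 1.12. The A arrays all lay below the P arrays, while 3 T arrays, at 2.00, 1.29, and 1.16, reached into the range of P. The P arrays on A1 filters were the lowest and the highest of P. T was lower than P by -1.16 ± 0.23 (adjusted p = 0.00215). In the blocked fit the difference was -1.17 ± 0.31 (adjusted p = 0.0621), so its size held while the call was lost. It was called in 32 of 36 alternatives, with values from -1.33 to -0.87 and adjusted p-values from 0.000274 to 0.273. Of these alternatives 24 each left out 1 array and kept the uneven filter sets. The call was lost wherever the filter set was a block or only A1 filters were used.

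NDUFB9, an accessory subunit of complex I, also kept the size of its difference in the blocked fit. On A1 filters only NDUFB9 had a difference of 0.50, the lowest of its 36 alternatives, over which adjusted p-values by limma reached 0.592. Over all arrays it was higher in T than in P by 0.66 ± 0.17 (adjusted p = 0.0179), and its difference was 0.66 ± 0.24 (adjusted p = 0.260) in the blocked fit. Its mean level was 2.14 ± 0.26 (SD, n = 9) in T and 1.48 ± 0.39 (SD, n = 7) in P. NDUFA5, also an accessory subunit, was at 2.50 ± 0.27 (SD, n = 9) in T. In P it had a mean of 2.53 on A1 filters and of 1.22 ± 0.64 (SD, n = 5) on A2 filters. The A array on an A2 filter went the other way, at 2.81 against 1.30 to 2.67 on the A arrays with A1 filters. The difference of NDUFA5 between T and P was 0.91 over all arrays and -0.025 on A1 filters only. In the blocked fit of quantile normalized levels it was 0.52 (adjusted p = 0.694 by limma).

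A was compared with P on the same 7 P arrays. Of the members, 13 passed, 5 higher and 8 lower in A, against 8.47% of all probes, with 2.61% higher and 5.85% lower. All probes were not selected for such differences, as the listed genes were. Higher in A were SLC25A4 (1.02), NDUFA4L2 (0.98), NDUFV1 (0.85), SLC25A3 (0.85), and SLC25A11 (0.69). Among those lower in A were UQCRC2 (-1.21), NDUFA4 (-1.04), SLC25A13 (-0.91), NDUFV3 (-0.78), NDUFB5 (-0.75), NDUFB6 (-0.70), and ATP5G1 (-0.63). With quantile normalization the split was 6 higher and 4 lower, and 576 of all probes were called, 293 of them higher. ATP5G1, a membrane ring subunit, was the only ATP synthase gene that passed. Its P arrays were at 2.73 and 2.83 on A1 filters and from 3.23 to 3.53 on A2 filters. The A array on an A2 filter, at 3.04, was above the A arrays on A1 filters, at 1.76 to 2.98. In the blocked fit of quantile normalized levels its difference was -0.0063 (adjusted p = 0.997 by limma). The 5 carriers divided, with 3 higher and SLC25A13 lower in A.

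In the blocked fit 2 members passed between A and P, against 2.71% of all probes, and both were lower in A. UQCRC2 had a difference of -1.21 ± 0.29 (adjusted p = 0.0201), close to the -1.21 ± 0.23 without the block. Over its 36 alternatives the difference ranged from -1.38 to -0.83 with adjusted p-values from 0.000266 to 0.480, and it was called in 32. Of these alternatives 24 each left out 1 array and kept the uneven filter sets. The call was lost with the identifier prefix as a block, and on A1 filters only with or without quantile normalization. It was also lost, by limma, with quantile normalization and the filter set block together (adjusted p = 0.0587). NDUFA4 was the other gene that passed in the blocked fit. The methods' test, without a block, called 17 members against 13.2% of probes. On A1 filters only, 0 members passed by limma against 0.876% of probes, and 7 members had an unadjusted p under 0.05 against 10.8%. SLC25A4, higher in A by 1.02 ± 0.21 (adjusted p = 0.00352) over all arrays, had a difference of 0.79 ± 0.25 (adjusted p = 0.108) in the blocked fit.

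NDUFA4, first assigned to complex I and now regarded as a subunit of complex IV, had levels in A of -1.18 at the lowest, a median of 0.12, and 0.46 at the highest. In P the levels ran from 0.67 through 1.03 to 1.69, and in T from 0.35 through 0.75 to 1.13. The A arrays lay below all P arrays, and the T arrays overlapped both. The filter sets of P overlapped too, with 1.15 and 1.03 on A1 filters and 0.67, 1.69, 1.23, 0.67, and 0.81 on A2. The difference of A from P was -1.04 ± 0.21 (adjusted p = 0.00284), and -0.94 ± 0.26 (adjusted p = 0.0428) in the blocked fit. It was called in 33 of 36 alternatives, with adjusted p-values from 0.00158 to 0.175. Of these alternatives 24 each left out 1 array and kept the uneven filter sets. The call was lost on A1 filters only, with or without quantile normalization. It was also lost in the limma fit of quantile normalized levels with the block (adjusted p = 0.0789).

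SLC25A13 encodes citrin, the aspartate/glutamate carrier of liver mitochondria, which serves the malate-aspartate shuttle and the urea cycle. It is outside the rule for values by array and was added after its values were seen, since its A and P arrays did not overlap. The A arrays ran from 1.02 through a median of 2.24 to 2.66, and the P arrays from 2.74 through 2.92 to 3.56. The difference was -0.91 ± 0.26 (adjusted p = 0.0317), and -0.71 ± 0.32 (adjusted p = 0.333) in the blocked fit. The call was also lost without any 1 of 5 arrays. Groups without overlap between A and P were found for 0.891% of probes, and among the members for UQCRC2, NDUFA4, SLC25A4, and SLC25A13.

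**Figure D3:**
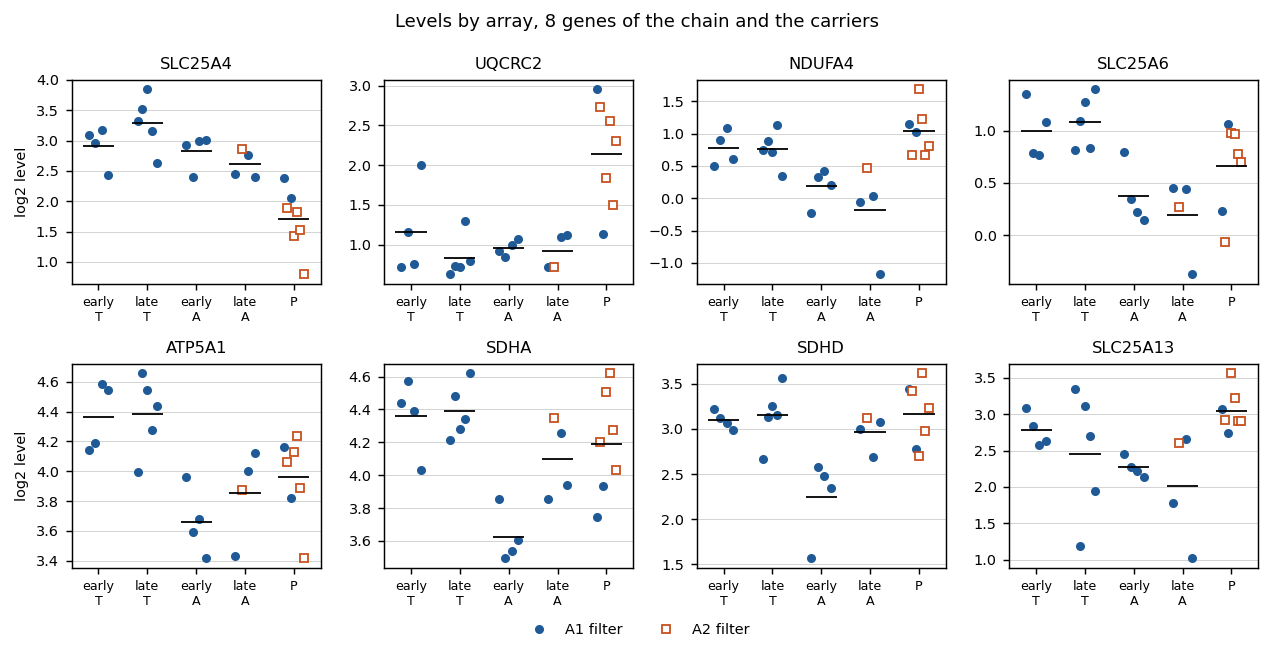
Log2 level of 8 genes on each of the 24 arrays by status group, with filled circles for A1 filters, open squares for A2 filters, and bars for group means. In SLC25A4 all 9 T arrays are above the 7 P arrays, in UQCRC2 the A arrays are below P, and in SDHA and SDHD early A has the lowest group mean. In NDUFA4, SLC25A6, and ATP5A1 the A groups have the lowest means.

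T and A were compared last. All but 1 of these arrays were on A1 filters, so this contrast could be drawn within a filter set. Over all arrays 2 of 31 members passed, both higher in T, against 0.469% of all probes, with 0.385% higher. Without late arousal replicate 2, the array on an A2 filter, 4 members passed, and without any 1 of 7 other arrays 0 passed. Over all probes 101 passed without the former, and 24 to 40 without the latter. The methods' test called 12 members, against 6.23% of probes. On A1 filters only, with 9 T and 7 A arrays, 4 members passed, all higher in T, against 1.38% of all probes. These were SLC25A6 (0.76), NDUFA4 (0.83), ATP5A1 (0.63), and SDHA (0.58). The same 4 passed in the blocked fit, against 1.29% of probes. Since the list was chosen for differences between states, a share above that of all probes does not by itself set the members apart.

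SLC25A6 is the listed symbol of another adenine nucleotide translocator, and it was not matched in the RefSeq gene table. Its levels in T ran from 0.77 through a median of 1.09 to 1.40. In A they ran from -0.37 through 0.31 to 0.79, and in P from -0.06 through 0.77 to 1.06. The T and A arrays met only at their edges, where 1 A array at 0.79 overlapped the lowest T arrays. The difference between T and A was 0.76 ± 0.17 (adjusted p = 0.0368), and 0.76 ± 0.17 (adjusted p = 0.0275) in the blocked fit. It was called in 24 of 36 alternatives, the call being lost without any 1 of 9 arrays, with values from 0.48 to 0.83 and adjusted p-values from 0.0217 to 0.113.

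ATP5A1, the catalytic-core alpha subunit of ATP synthase, lies outside the rule for values by array and was added after its values were seen. Its levels ran from 3.99 through a median of 4.44 to 4.66 in T and from 3.42 through 3.78 to 4.12 in A. Only the lowest T array, at 3.99, fell within the range of A. The difference was 0.62 ± 0.14 (adjusted p = 0.0436). It was called in 18 of 36 alternatives and lost without any 1 of 14 arrays. Under quantile normalization it was 0.28 (adjusted p = 0.539), and over all alternatives the adjusted p-values ranged from 0.0257 to 0.539.

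SDHA, the flavoprotein subunit of complex II that oxidizes succinate, ran from 4.03 through a median of 4.39 to 4.62 in T. In A it was between 3.49 and 4.25 on A1 filters, with a median of 3.86, and at 4.35 on the array with an A2 filter. The A2 array was thus the highest of A, and without it the T and A ranges still overlapped. The difference was 0.51 ± 0.15 (adjusted p = 0.0906) over all arrays and 0.58 ± 0.13 (adjusted p = 0.0265) in the blocked fit. NDUFA4 had a difference of 0.77 ± 0.19 (adjusted p = 0.0599) over all arrays and of 0.79 ± 0.20 (adjusted p = 0.0423) in the blocked fit.

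By complex, the differences of T from A were mostly positive. Over all arrays they were positive for 26 of 31 members, with a median of 0.38, compared with 57.4% and 0.046 over all probes and 65.3% and 0.19 over the other listed genes. They were positive for all 5 ATP synthase genes (median 0.57), both complex II genes (0.52), and 9 of 10 complex I genes (0.28). The 5 carriers were positive too, with a median of 0.40. The negative values belonged to TIMM9 (-0.37), TOMM34 (-0.27), NDUFS5 (-0.21), COX4NB (-0.12), and NDUFA4L2 (-0.10), none of which passed. On A1 filters only, without the A array on an A2 filter, TOMM34 was at -0.068, COX4NB at -0.024, and NDUFS5 at 0.060. No member had T and A arrays without overlap, as 0.19% of probes did. An unadjusted p under 0.05 was found for 14 members, against 14.1% of all probes.

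The size of this difference went with the brightness of the probes. Among the brightest 2400 probes of the membrane, 81.5% had a positive difference of T from A, with a median of 0.28. The 17 members among them were all positive with a median of 0.46. Among the dimmest 2400 probes 44.6% were positive, with a median of -0.037, and 1 of the 4 members there was positive. Median signal ran from 84.3 to 132 intensity units in A, with a middle value of 108, and from 72.8 to 114 in T, with 79.5. The interquartile range of log2 levels was 1.91 to 2.26 in A (median 2.08) and 2.14 to 2.32 in T (median 2.19), and the states overlapped in both properties. The part of these properties in the differences of the members was not tested.

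Quantile normalization, which gives every array the same distribution of levels, brought the median over the brightest 2400 probes to 0.037 and that of the 17 members among them to 0.24. The differences were then positive for 23 of 31 members with a median of 0.11. By limma 0 members and 17 of all probes passed, while 7 members had an unadjusted p under 0.05. SLC25A6 and NDUFA4, whose probes were not among the brightest, kept differences of 0.70 (adjusted p = 0.110) and 0.74 (adjusted p = 0.116). SDHA had a difference of 0.17 (adjusted p = 0.762). Under normexp background correction SLC25A6 was at 0.48.

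**Figure D4:**
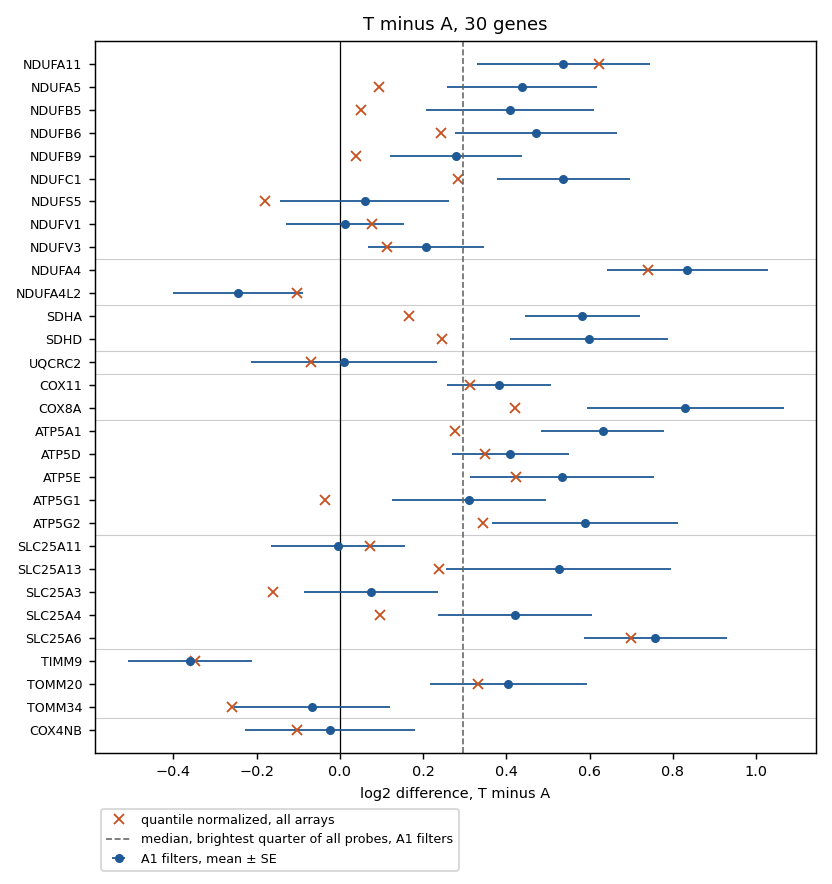
Difference between T and A on the log2 scale for 30 members, ordered by complex. Circles with bars are the mean and SE on A1 filters (9 T and 7 A arrays), crosses are values after quantile normalization of all arrays, and the dashed line is the median of the brightest 2400 probes on A1 filters, 0.30. Most circles lie right of 0, and the crosses lie left of their circles for the bright probes, as in SDHA with 0.58 and 0.17, but close to them in NDUFA4 and SLC25A6.

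Other members had differences between T and A on A1 filters that did not pass. In complex I, NDUFC1 was at 0.54 (adjusted p = 0.0924), NDUFA11 at 0.54, NDUFB6 at 0.47, NDUFA5 at 0.44, and NDUFB5 at 0.41. NDUFV1 was at 0.012, NDUFS5 at 0.060, NDUFV3 at 0.21, and NDUFB9 at 0.28. In complex IV, COX8A was at 0.83 (adjusted p = 0.0793) and COX11 at 0.38 (adjusted p = 0.119). The ATP synthase genes ATP5D, ATP5E, ATP5G1, and ATP5G2 were at 0.41, 0.53, 0.31, and 0.59. UQCRC2 was at 0.011, SLC25A3 at 0.075, and SLC25A13 at 0.53. In protein import, TOMM20 was at 0.41 and TIMM9, a chaperone of the space between the membranes, at -0.36.

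Stages were compared by a fit over the 5 status groups, first within the states. Between late and early torpor 0 members passed by limma, as did 0 of 9595 probes, and 0 members had an unadjusted p under 0.05 against 4.77% of probes. Between late and early arousal 0 members passed by limma, again with 0 probes, and 3 members had an unadjusted p under 0.05 against 7.79% of probes. These were SDHD (0.73), SDHA (0.48), and NDUFA4L2 (-0.63). Between early torpor and late arousal 0 members and 0 probes passed, and 8 members had an unadjusted p under 0.05 against 8.05% of probes. These stages are parts of T and A, whose differences took part in choosing the list, so this count is not independent of the choice.

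Between late torpor and early arousal, the step of rewarming, 0 members passed by limma over all arrays and 0.667% of probes did. In the blocked fit 2 members passed, against 1.54% of probes and 49 of the 1298 other listed genes. Both were subunits of complex II and both were lower in early arousal, SDHD by -0.91 ± 0.23 (adjusted p = 0.0417) and SDHA by -0.77 ± 0.17 (adjusted p = 0.0285). Without the block the values were the same and both adjusted p-values were 0.0540. The arrays of both stages are all on A1 filters. An unadjusted p under 0.05 was found for 10 members over all arrays, against 12.8% of probes, and 26 of 31 differences were negative (21 after quantile normalization). Late torpor and early arousal are parts of T and A, so these counts are not independent of the choice of the list.

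SDHA was at 4.22, 4.48, 4.28, 4.34, and 4.62 in late torpor and at 3.86, 3.49, 3.54, and 3.60 in early arousal. In late arousal it was at 3.86, 4.35, 4.25, and 3.94. SDHD, a membrane anchor of complex II chosen here after its values were seen, was at 2.67, 3.13, 3.26, 3.15, and 3.57 in late torpor, at 1.56, 2.57, 2.47, and 2.35 in early arousal, and at 2.69 to 3.12 in late arousal. For both genes early arousal did not overlap late torpor, and for SDHD it did not overlap late arousal either. How many of all probes separate in this way between stages was not counted. Stages of 4 or 5 arrays separate more readily than the larger pooled states. After quantile normalization the steps from late torpor were -0.31 for SDHA (adjusted p = 0.720) and -0.53 for SDHD (adjusted p = 0.471).

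The mean level of each group of genes, relative to the mean of each gene over all arrays, was also compared by status group. Complex II was at 0.17 ± 0.16 (SD, n = 4) in early torpor, 0.21 ± 0.23 (n = 5) in late torpor, -0.63 ± 0.15 (n = 4) in early arousal, -0.02 ± 0.14 (n = 4) in late arousal, and 0.12 ± 0.24 (n = 7) in P. Early arousal, at -0.85 to -0.52, lay below every other array. The probes of SDHA and SDHD were at percentiles 95.2 and 90.4 of level, among the bright probes that were mostly lower in A. These group means were not computed after quantile normalization. ATP synthase was at 0.28 ± 0.18 and 0.16 ± 0.37 in early and late torpor, at -0.35 ± 0.20 and -0.23 ± 0.15 in early and late arousal, and at 0.05 ± 0.10 in P. The arousal arrays overlapped late torpor, where 1 array was at -0.44, and lay below early torpor.

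**Figure D5:**
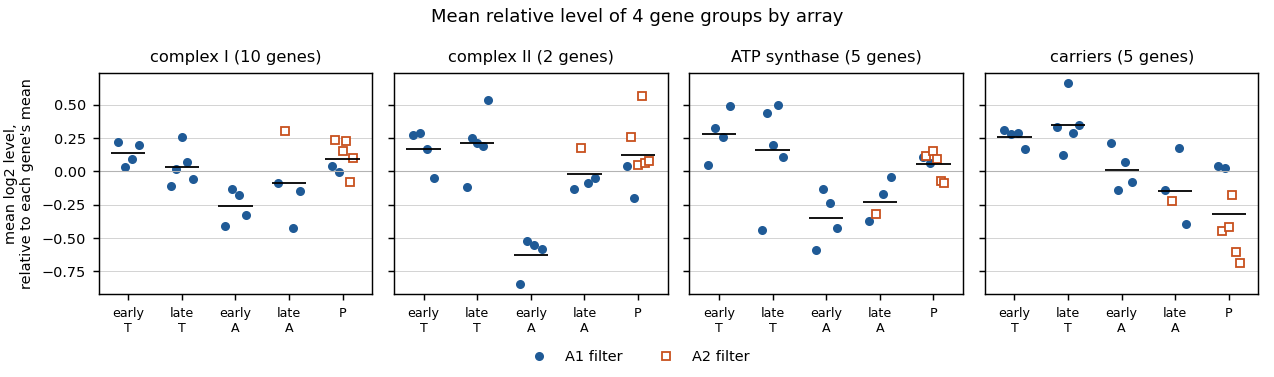
Mean log2 level of the genes of complex I, complex II, ATP synthase, and the carriers on each array, after subtraction of each gene's mean over all 24 arrays, by status group. Filled circles are A1 filters, open squares A2 filters, and bars are group means, all without quantile normalization. Early A is lowest in complex II, at a mean of -0.63, and in the carriers the squares of P have a mean of -0.47 against 0.04 for the circles of P.

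Complex I was at 0.08 ± 0.13 (SD, n = 9) in T, -0.17 ± 0.23 (n = 8) in A, and 0.10 ± 0.12 (n = 7) in P. Its A array on an A2 filter, at 0.31, was the highest of all 24, and the A arrays on A1 filters ranged from -0.43 to -0.09. The carriers were at 0.31 ± 0.15 (n = 9) in T, where every array was above every P array, and at -0.07 ± 0.21 (n = 8) in A. In P they were at -0.47 ± 0.20 (n = 5) on A2 filters and at 0.03 and 0.04 on A1 filters, below the lowest T array, at 0.12, and within the range of A. The carriers were listed for differences between these states, so their separation of T from P is not independent of the choice. SLC25A13 went the other way, with means of 2.60 in T and 3.05 in P, while the other carriers were higher in T. How many other groups of listed genes separate in this way was not counted. In complex II and ATP synthase the T and P arrays overlapped.

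Other genes of mitochondrial energy metabolism were counted from the same published list, with the same caveat. Of 7 genes of ubiquinone and electron transfer, 3 passed between T and P, 2 higher and 1 lower, and 1 passed in the blocked fit. Of the 1298 listed genes that are no members, 614 and 45 did. Between T and A, 1 was lower in T over all arrays, COQ10B (-1.17, adjusted p = 0.0405). In the blocked fit ETFDH, which passes electrons from fatty acid oxidation to ubiquinone, was higher in T (0.50, adjusted p = 0.0384). Of 5 enzymes of the citrate cycle and malate-aspartate shuttle, IDH2, SUCLG1, MDH1, MDH2, and GOT2, 0 passed between T and A, and all 5 differences were positive (0.33 to 0.62).

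Of 10 mitochondrial ribosomal proteins, likewise from the list of which 614 of 1298 other genes passed, 6 passed between T and P, 4 higher and 2 lower, and 0 in the blocked fit, and between T and A 0 passed with 9 of 10 positive (median 0.15). Of 8 other membrane proteins of mitochondria, among them VDAC1, the channel of the outer membrane, 4 passed between T and P, 0 in the blocked fit, and 0 between T and A over all arrays. VDAC1 had a difference between T and A of 0.81 (adjusted p = 0.0916) over all arrays and of 0.90 (adjusted p = 0.0384) on A1 filters only.

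Markers of other cells and of liver differed between the states as well. Between T and P, 3 of 5 white cell markers passed and 0 in the blocked fit, against 9.86% and 0.969% of all probes. FCGR3A was higher in T by 1.36 (adjusted p = 0.00750), and IGJ, the joining chain of plasma cells, was lower by -1.78 (adjusted p = 0.00135). Of the 6 liver markers, APOB was higher in T (0.71, adjusted p = 0.00750) and FGB lower (-1.28, adjusted p = 0.0132), and 0 passed in the blocked fit. Between A and P 8.47% of all probes passed. The white cell markers IGJ and LYZ were lower in A, as were the liver markers TTR, APOA2, and SERPINA1. Other markers went the other way. Mean levels in A and P were 1.38 and 0.995 for FCGR3A, 0.29 and -0.01 for LAPTM5, -1.01 and -1.52 for CD27, and 8.41 and 8.26 for ALB. In the blocked fit IGJ (-1.64, adjusted p = 0.0317), TTR (-1.46, adjusted p = 0.00703), and APOA2 (-1.02, adjusted p = 0.0383) passed, against 2.71% of all probes.

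Between T and A, HBA2, a hemoglobin chain of red cells, had a difference of 1.26 (adjusted p = 0.0906), with levels from -0.04 to 2.97 in T and from -1.31 to 1.27 in A. Of 5 white cell markers 0 passed between T and A, and their summed level ranged from 3.54 to 5.19 in T and from 2.87 to 3.81 in A on the log2 scale. Of the 6 liver markers 1 passed, against 0.469% of all probes. This was APOB, which was higher in T by 0.86 (adjusted p = 0.0110). The summed level of the 6 was 8.90 to 10.3 in T and 8.65 to 9.44 in A. The part of these markers in the differences of the members was not tested.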

How the data were processed

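Membranes were read by the authors with a phosphorimager and ImaGene 6.1.0. Per the file headers, each deposited scanner file holds spot and background intensity. They also deposited a table of the ratio of background-subtracted signal to the array median. Spots marked as empty or at or below 0 stand at 0.002 there. A ratio computed here from those intensities was within 4.98e-07 of the authors' ratio elsewhere. Values at or below 0 were missing. Fits used log2 ratios, early and late stages pooled as T and A following the methods, and limma 3.58.1 in R 4.3.3 (lmFit, eBayes), with Benjamini-Hochberg adjustment over all probes and calls at an adjusted p under 0.05. Errors of differences are SEs of the fit. Stages used a fit over the 5 status groups, and the filter set a fit with the state. Symbols were paired with probes by state means within 1e-04 (largest distance 5.00e-06, next nearest probe 0.00532 or more). Of the 31 symbols, 22 were matched in the RefSeq gene table. The unmatched symbols were those of the ATP synthase genes, NDUFA4, NDUFA4L2, SLC25A6, and COX4NB, and they were kept as listed. No coordinates or clone sequences are given, since none of the files used here hold them. Tables were computed with pandas 2.3.3 and numpy 2.4.6, plots with matplotlib 3.10.9. The fits were also run on simulated arrays with independent noise for each probe. Those arrays held no effect of the filter set or the identifier prefix, so they cannot show how the fits handle either.

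Members and lists were chosen with earlier results of these data known. All members are named except 1, which enters the counts and is not reported here singly. Values by array were given, for at most 14 genes in order of adjusted p, to members called between states whose groups did not overlap, called with the filter set as a block, or called for the filter set with a state call lost under the block. Alternatives were normexp background correction (offset 50), quantile normalization, the deposited ratio, a floor in place of missing values, dim probes left out (not over 2 times background on at least 7 arrays), identifier prefix or filter set as a block, A1 filters only, 5 groups in the fit, the methods' test (analysis of variance, with q-values after Storey and Tukey's HSD), and leaving out each array. Quantile normalization together with the filter block or A1 filters was added after seeing the data. Animals are separate, and the number of arrays limits the precision.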

Additional observations from a re-analysis of the deposited data

Results flagged for a closer look

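Within the 5 status groups, 155 sets of levels (31 genes by 5 groups) were examined for an array far from the others, and 6 had one, where chance gives about 1 in 20. On the late arousal array with an A2 filter, SLC25A3 was at 2.65, below the next at 3.40, and TOMM34 at -0.046, above the next at -1.53. In late torpor, ATP5G2 was at 1.87 on 1 array, below the next at 3.41, and UQCRC2 at 1.29 on another, above the next at 0.79. SLC25A11 was at -0.15 on 1 early torpor array, below the next at 0.22. SLC25A4 was at 2.40 on 1 early arousal array, below the next at 2.93.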

How the results depend on the processing

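With the filter set as a block, 1 member was called between T and P (14 without), 2 between A and P (13), 4 between T and A (2), and 2 between early arousal and late torpor (0). On A1 filters only these counts were 0, 0, 4, and 2. Over all probes the blocked fit called 93, 260, 124, and 148, and the A1 filters 86, 84, 132, and 140. Without the block 946, 813, 45, and 64 probes were called. The identifier prefix as a block gave 6 members (524 probes) for T vs. P and 3 (243) for A vs. P. Quantile normalization gave 0 members (17 probes) for T vs. A. The methods' test gave 12 members (598 probes) for T vs. A, 16 (1338) for T vs. P, and 17 (1265) for A vs. P. Quantile normalization gave 0, 1, and 0 for the 3 state comparisons with the filter block, and 0 for each on A1 filters. Over all probes it then called 91, 101, and 28 with the block and 65, 25, and 17 on A1 filters. With normexp the split between T and P was 8 higher and 2 lower, and 543 of all probes were called, 307 of them higher. The combined alternatives with quantile normalization were chosen after seeing the data. The cause was not tested.

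Leaving out 1 array gave 6 to 15 calls for T vs. P, 5 to 18 for A vs. P, 0 to 4 for T vs. A, 0 to 1 for early arousal vs. late torpor, and 7 to 13 for the filter set. In the same order these fits called 550 to 1490, 477 to 1546, 24 to 101, 11 to 92, and 940 to 1955 of all probes. Without summer active replicates 2, 4, 5, 6, or 7, T vs. P had 6 to 8 calls and A vs. P 5 to 8, fewest without replicate 4, and A vs. P had 8 without early arousal replicate 1 or 4. Over all probes T vs. P had 550 to 605 calls and A vs. P 477 to 603 without those summer active replicates. Without early arousal replicate 1 or 4, A vs. P had 540 and 551. The filter set had 7 members and 1271 of all probes without summer active replicate 1. Between T and A, 4 members were called without late arousal replicate 2, the A2 array, and 0 without early arousal replicates 2, 3, or 4, early torpor replicate 4, or late torpor replicates 2, 3, or 5. Over all probes 101 were called without the A2 array, and 24 to 40 without those other arrays. The other stage comparisons stayed at 0 under each alternative.

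Among signs reversed between T and P were NDUFS5 0.15, NDUFV3 0.067, and TOMM34 0.056 with the block (0.12, 0.057, and 0.021 with quantile normalization as well), and NDUFA5 -0.025, NDUFS5 0.033, and NDUFV3 0.15 on A1 filters (NDUFV3 0.13 with quantile normalization). ATP5G1 between A and P was 0.059 in the latter. No paired analysis was possible because each animal was in 1 state and replicate numbers were given in accession order.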
